A study of Homo sapiens with 24 samples.

Results

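The H/ACA small nucleolar RNA genes, whose symbols begin with SNORA, were examined on 24 Illumina bead arrays of 4 Hodgkin lymphoma cell lines. The members were all probes whose gene symbol in the platform annotation begins with SNORA: 102 of 47323 probes, for 101 of 20046 gene symbols, since SNORA73B has 2 probes. The name alone decides membership, but the family was picked on its AEZS-136 against control changes in these arrays, so those values, the calls made on them and the differences between them are given here as a description. No p-value is printed for them. Of the 102 probes, 88 (87 symbols) were detected above background, at a detection p-value under 0.05, on at least 3 arrays and were kept. Among the kept probes, 40 were detected on all 24 arrays, and 6 (SNORA15, SNORA38, SNORA50A, SNORA54, SNORA71B and SNORA74A) were detected in L-540 alone. The 14 probes that were not kept, for SNORA11, SNORA16B, SNORA19, SNORA31, SNORA35, SNORA36A, SNORA36B, SNORA36C, SNORA47, SNORA53, SNORA60, SNORA69, SNORA71E and SNORA81, were detected on at most 2 arrays each.

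H/ACA RNAs are short nuclear RNAs that fold into a pair of hairpins followed by the H box and the ACA box. Each is bound by dyskerin (DKC1), NHP2, NOP10 and GAR1, and base pairs with ribosomal RNA to place the uridine that dyskerin turns into pseudouridine; a few act in the cleavage of the ribosomal RNA precursor instead. In human cells nearly all are cut out of introns of a host gene, many of which code for ribosomal proteins or translation factors or are noncoding small nucleolar RNA host genes (SNHG). Mature small nucleolar RNAs carry no poly(A) tail, and the labelled RNA was prepared with a kit that starts from an oligo(dT) primer in its standard form. Whether a probe measured the mature RNA, a precursor or a host transcript was not tested.

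AEZS-136 is a dual inhibitor of PI3K and ERK. SUP-HD1, L-540, L-428 and KM-H2 cells, established Hodgkin lymphoma lines with no transgene, were exposed to 10 µM AEZS-136 for 2 h or kept as the vehicle (DMSO) control of the same time, with 3 arrays per line and treatment. The study calls L-540 and SUP-HD1 sensitive and KM-H2 and L-428 resistant to the compound. Nothing in the labels tells whether the 3 arrays of each group are separate cultures, and the p-values below measure only the spread between arrays, which may be technical. In these bulk samples fewer cells with a transcript and less of it per cell cannot be told apart. The median signal of an array lay between 96 and 127.9 units and 16876 to 19524 probes were detected per array. In each line 5 of 7 Hodgkin cell markers were detected on all 6 arrays. TNFRSF8 (CD30), a defining marker, was detected on all 6 arrays only in L-540. Of 4 B lineage markers, CD79A and CD79B were detected throughout in KM-H2 and L-428 and CD79A in SUP-HD1. PAX5 and MS4A1 were not detected throughout in any line, and L-540 had none of the 4. Of the T cell, myeloid and stromal or epithelial markers, CD3D, CD3G, CD2, CD14, CSF1R and COL1A1 were detected throughout in KM-H2. So were CDH1 in L-428, CD2 and CSF1R in L-540, and CD2, CSF1R and COL1A1 in SUP-HD1.

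After 2 h of AEZS-136 more SNORA probes were called lower than higher in every line, and L-540 had the most. In KM-H2 this turned with arrays scaled to a common median, where 3 were called higher and 0 lower. Values are normalized log2 intensities, a change is AEZS-136 minus control in log2 units, and a call needed an adjusted p under 0.05 and a change beyond 0.4 in either direction. In L-540 47 kept SNORA probes were called lower and 0 higher, where 3.53% of all 24578 kept probes were lower and 5.53% higher. KM-H2 had 12 lower and 3 higher (4.75% and 6.47% of all probes), L-428 had 13 lower and 1 higher (3.22% and 4.05%), and SUP-HD1 had 14 lower and 2 higher (3.60% and 2.94%). Averaged over the 4 lines, 14 were called lower and 0 higher (2.47% and 4.22%). The median change over the 88 probes was -0.07 in KM-H2, -0.19 in L-428, -0.49 in L-540, -0.16 in SUP-HD1 and -0.23 in the mean of the lines, beside medians over all kept probes between -0.01 and 0.01. Detection was confined to L-540 for 6 of the 88, and at least SNORA20 was seen on too few arrays of other lines to be kept without L-540. The 40 probes detected on every array were therefore also counted: 10, 9, 22 and 12 of them were lower in KM-H2, L-428, L-540 and then SUP-HD1, where 6.19, 3.83, 3.93 and 4.88% of the 12101 probes detected on all arrays were lower. Their medians were -0.11, -0.26, -0.45 and -0.29. In L-540 all 40 changes lay below 0, from -0.93 to -0.05.

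Most of these calls depended on the processing. In L-540 the count held with the authors' values, but fell to 15 with median scaling and to 11 by the methods' t-test after adjustment. With the authors' own normalized values 1 probe was called in KM-H2, 5 in L-428, 46 in L-540, 4 in SUP-HD1 and 3 in the mean of the lines, and the medians were -0.03, -0.10, -0.42, -0.07 and -0.14. With no background correction 3 were called in the mean. Without replicate 2 of the AEZS-136 arrays, 31 probes were called in L-540, and without replicate 1 of the L-428 controls 8 were called in L-428. With arrays scaled to a common median in place of quantile normalization, 15 were called in L-540, all lower, and the KM-H2 median was 0.03, where that scaling moved the median of all probes by 0.07 in KM-H2. The export order of the arrays was cut into 2 export sets of 12, which no label gives. Within these sets the L-540 median was -0.49 and -0.50. The first held 1 L-540 control array and the second 1 L-540 AEZS-136 array, so each median rests on a single array on 1 side.

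**Figure D1:**
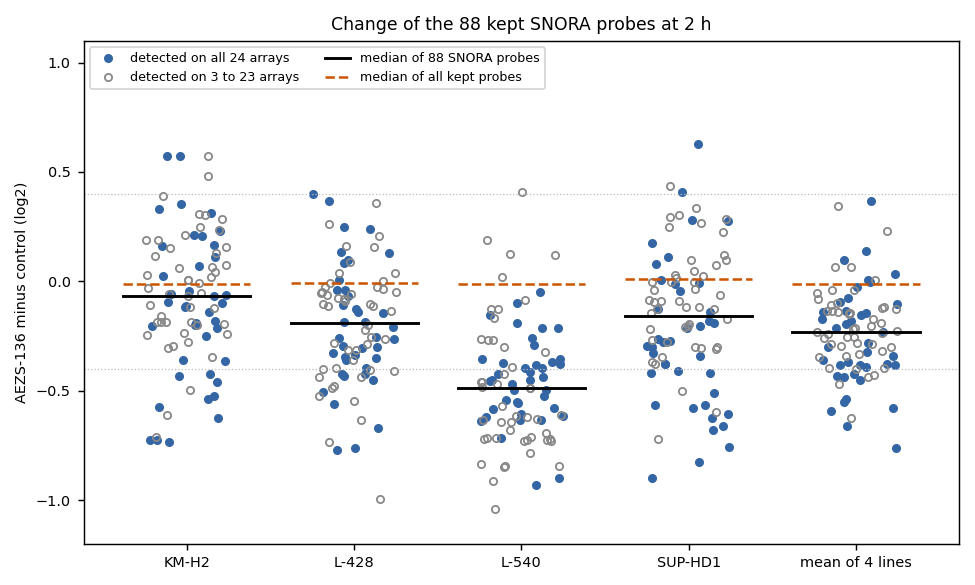
Change of the 88 kept SNORA probes (AEZS-136 minus control, log2) in each line and in the mean of the 4 lines, 1 point per probe, with filled points for the 40 probes detected on all 24 arrays. The black line is the SNORA median, lowest in L-540 at -0.49, the dashed line is the median of all kept probes, and the dotted lines mark changes of 0.4.

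Counted by lines, 3 members (SNORA63, SNORA9 and SNORA80E) were called lower in all 4 lines, where 0.387% of all kept probes were. Another 6 (SNORA22, SNORA23, SNORA27, SNORA28, SNORA3B and SNORA57) were lower in 3 lines, 13 in 2 lines, 30 in 1 line and 36 in none. Only 5 probes were called higher in any line: those for SNORA12 in L-428, SNORA16A in SUP-HD1, SNORA25 in KM-H2 and SUP-HD1, SNORA56 in KM-H2, and 1 of the 2 SNORA73B probes in KM-H2. Without the threshold, 36 probes had a change below 0 in all 4 lines and 1 had a change above 0 in all 4. Shares of all kept probes were not counted for these signs, nor for calls in 3 or fewer lines. The 3 treated arrays lay below the 3 control arrays for 64 of the 88 probes in L-540 (13.0% of all kept probes), for 20 in KM-H2 (15.8%), for 29 in L-428 (12.6%) and for 31 in SUP-HD1 (13.0%). The 14 probes called in the mean ended with SNORA77 at -0.43, SNORA5A at -0.43 and SNORA3A at -0.43, and the next below the threshold were SNORA13 at -0.40, SNORA11B at -0.40 and SNORA30 at -0.39.

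SNORA63 and SNORA62, also known as E3 and E2, are among the few H/ACA RNAs that have been linked to cleavage of the ribosomal RNA precursor, in frog oocytes. SNORA63 had the lowest mean change of the family. Its control arrays read 7.68, 7.81 and 7.79 in KM-H2 and its AEZS-136 arrays 7.36, 7.06 and 6.99. L-428 controls were at 9.03, 9.35 and 9.18 against 8.33, 8.36 and 8.56 with AEZS-136, L-540 controls at 13.56, 13.46 and 13.66 against 12.64, 12.53 and 12.81, and SUP-HD1 controls at 8.25, 8.27 and 8.47 against 7.61, 7.57 and 7.54. In every line the 3 treated arrays lay below the 3 controls. The changes were -0.63, -0.77, -0.90 and -0.76 (SE 0.11 each) in KM-H2, L-428, L-540 and then SUP-HD1, and -0.76 (SE 0.055) in their mean, a level 1.70-fold lower.

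SNORA62 was one of the brightest members and had a smaller mean change. Controls and treated arrays of KM-H2 read 9.01, 9.05 and 9.19 against 8.64, 8.73 and 8.51, and those of L-428 9.54, 9.87 and 9.41 against 8.92, 8.90 and 8.99. L-540 gave 14.10, 14.05 and 14.18 against 13.74, 13.71 and 13.81, and SUP-HD1 8.04, 8.11 and 8.20 against 7.88, 7.97 and 7.70. The groups did not overlap in any line, and the change passed the threshold in KM-H2 (-0.46) and L-428 (-0.67). It was -0.36 in L-540 and -0.27 in SUP-HD1, and -0.44 (SE 0.052) in the mean. SNORA73A and SNORA73B, near-identical copies that also act in precursor processing and whose probes may not tell them apart, had mean changes of -0.10 for SNORA73A and of -0.03 and -0.21 for the SNORA73B probes. In KM-H2 these 3 probes were above 0, at 0.23, 0.57 and 0.21, and in the other 3 lines all were below 0.

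The other members shown array by array are known or predicted guides of pseudouridine in ribosomal RNA. SNORA9 was lower in all 4 lines. Its KM-H2 controls read 5.77, 5.88 and 5.96 and its treated arrays 5.21, 5.35 and 5.33, and in L-428 the values were 7.17, 7.71 and 7.20 against 6.68, 6.60 and 6.53. L-540 gave 12.44, 12.58 and 12.60 against 11.96, 11.68 and 12.07, and SUP-HD1 5.85, 6.13 and 6.39 against 5.33, 5.61 and 5.44. No treated array reached a control array of its line. The mean change was -0.66 (SE 0.071), with single lines between -0.76 in L-428 and -0.57 in KM-H2.

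SNORA80E, earlier named SNORA42, was the third member lower in all 4 lines. KM-H2 read 6.88, 7.20 and 7.22 in controls against 6.18, 6.49 and 6.45 with AEZS-136, and L-428 9.49, 9.22 and 9.06 against 8.75, 8.80 and 8.93. In L-540 12.66, 12.67 and 12.60 stood against 12.08, 11.96 and 12.16, and in SUP-HD1 7.41, 7.30 and 7.24 against 6.76, 6.55 and 6.76. The groups were apart in each line, by the smallest margin in L-428. The changes were -0.73, -0.44, -0.58 and -0.62, with a mean of -0.59 (SE 0.059).

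SNORA57 was apart in all 4 lines too. Controls against treated arrays were 7.86, 8.05 and 7.87 against 7.15, 7.08 and 7.37 in KM-H2, and 9.63, 9.72 and 9.76 against 9.24, 9.47 and 9.49 in L-428. The values were 12.47, 12.49 and 12.38 against 12.06, 11.85 and 12.07 in L-540, and 9.21, 9.04 and 9.31 against 8.38, 8.38 and 8.32 in SUP-HD1. The change was largest in SUP-HD1 (-0.83) and KM-H2 (-0.73), smaller in L-540 (-0.45), and did not pass the threshold in L-428 (-0.30), with a mean of -0.58 (SE 0.050).

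SNORA27 behaved in the same way, with non-overlapping groups in each line. KM-H2 controls read 7.05, 6.76 and 6.69 and treated arrays 6.30, 5.99 and 6.003, while L-428 read 7.55, 7.65 and 7.57 against 7.28, 7.22 and 7.29. L-540 read 9.60, 9.60 and 9.53 against 8.77, 8.84 and 9.22, and SUP-HD1 6.35, 6.66 and 6.62 against 5.998, 6.06 and 6.04. Its change was called in KM-H2 (-0.74), L-540 (-0.63) and SUP-HD1 (-0.51) but was -0.33 in L-428, and the mean was -0.55 (SE 0.060).

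SNORA22 was lower in 3 lines and not in SUP-HD1. In KM-H2 controls of 6.10, 5.96 and 5.83 stood against 5.27, 4.78 and 5.70, where 1 treated array was not above detection, and in L-428 7.40, 7.43 and 7.10 stood against 6.28, 6.45 and 6.22. L-540 had 11.67, 11.74 and 11.90 against 11.18, 10.97 and 11.12, while SUP-HD1 overlapped, with 5.55, 5.86 and 5.64 against 5.56, 5.71 and 5.44. The L-428 change of -0.998 (SE 0.16) was the largest of any member in that line, beside -0.71 in KM-H2, -0.68 in L-540 and -0.12 in SUP-HD1.

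SNORA3B and SNORA28 were lower in L-428, L-540 and SUP-HD1 and overlapped in KM-H2. SNORA3B read 7.75, 7.84 and 7.74 against 7.38, 7.81 and 7.57 in KM-H2, and 7.61, 7.49 and 7.35 against 7.12, 7.19 and 6.79 in L-428. In L-540 it read 8.98, 8.92 and 8.73 against 8.16, 8.29 and 8.32, and in SUP-HD1 7.56, 7.53 and 7.74 against 6.85, 6.73 and 6.55. Its changes were -0.19, -0.45, -0.62 and -0.90 in KM-H2, L-428, L-540 and then SUP-HD1. For SNORA28 the KM-H2 arrays read 7.25, 7.27 and 7.32 against 7.31, 7.13 and 7.06, and the L-428 arrays 8.53, 8.44 and 8.01 against 7.72, 7.81 and 7.78. Its L-540 arrays read 13.08, 13.19 and 12.85 against 12.56, 12.57 and 12.61, and its SUP-HD1 arrays 7.42, 7.09 and 7.29 against 6.53, 6.63 and 6.61. The SNORA28 changes were -0.11, -0.56, -0.46 and -0.68 in the same order, with a mean of -0.45 (SE 0.059).

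SNORA51 and SNORA48 had dim groups. SNORA51 read 5.59, 5.67 and 5.43 against 4.79, 4.91 and 5.16 in KM-H2, where only 1 treated array was detected, and 6.85, 6.82 and 6.70 against 6.33, 6.39 and 6.33 in L-428. In L-540 it read 12.25, 12.24 and 11.93 against 11.47, 11.35 and 11.74, and in SUP-HD1 5.28, 5.56 and 5.03 against 5.22, 4.66 and 5.36. It was apart in all lines but SUP-HD1, with changes of -0.61, -0.44, -0.62 and -0.21. SNORA48 was not detected on any KM-H2 array and on 1 array of SUP-HD1, a control, so no fold is given in those lines. It read 6.64, 6.46 and 6.22 against 5.49, 5.79 and 5.84 in L-428 and 9.90, 9.75 and 9.78 against 9.28, 8.85 and 9.18 in L-540, changes of -0.74 and -0.71 with no overlap.

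SNORA77, the last of the 12, read 5.60, 6.17 and 6.10 against 5.47, 5.34 and 5.48 in KM-H2 and 6.22, 6.41 and 5.97 against 6.10, 5.50 and 5.96 in L-428. L-540 gave 10.84, 10.75 and 10.83 against 10.36, 10.03 and 10.29, and SUP-HD1 7.49, 7.36 and 7.68 against 7.28, 7.27 and 7.14. Only L-428 overlapped. The changes were -0.53, -0.35, -0.58 and -0.28.

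**Figure D2:**
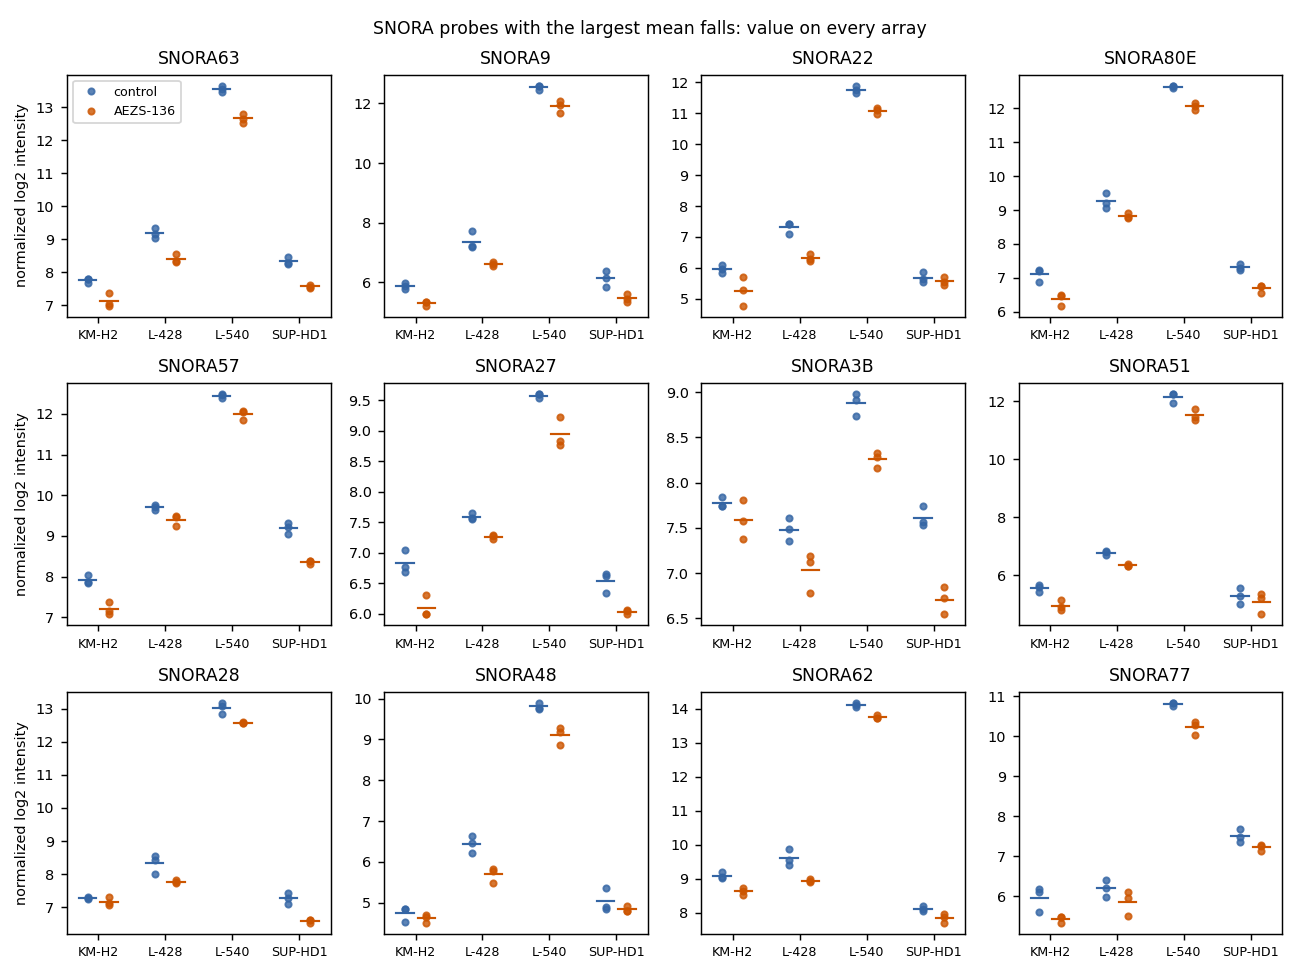
Normalized log2 intensity of the 12 SNORA probes with the largest mean falls on every array, controls in blue and AEZS-136 in orange, with a bar at each group mean of 3 arrays and an axis of its own in each panel. The probes were chosen for their mean change, and the L-540 arrays lie highest in every panel.

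In the mean of the lines 78 of the 88 probes had a change below 0 and the rest did not, beside a median of -0.01 over all kept probes. SNORA25 had the highest mean change, 0.37, which was not called. It read 7.45, 7.25 and 7.24 in KM-H2 controls against 7.87, 8.03 and 7.76 with AEZS-136, and 8.16, 8.26 and 8.11 against 8.72, 8.84 and 8.85 in SUP-HD1. In both lines the treated arrays were above the controls, with changes of 0.57 and 0.63, while L-540 overlapped at 10.71, 10.72 and 10.67 against 10.50, 10.75 and 10.56. SNORA56, which lies in the dyskerin gene DKC1, had a mean change of 0.35 and was called in KM-H2 (0.57), and SNORA70C, SNORA12 and SNORA32 had mean changes of 0.23, 0.14 and 0.10. SNORA16A went both ways. Its controls and treated arrays read 6.45, 6.52 and 6.76 against 5.92, 6.19 and 6.0 in KM-H2 and 10.37, 10.41 and 10.62 against 9.88, 9.69 and 9.98 in L-540, and were lower with AEZS-136. In SUP-HD1 they read 6.33, 6.29 and 6.16 against 6.67, 6.52 and 6.82 and were higher, a change of 0.41.

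Most members lie inside another gene, so the probes of those genes were read beside them. In the RefSeq gene table (GRCh38.p14) the span of 1 gene held 86 of the 102 members, spans of several genes held 15, and SNORA50C lay in none. The table gives no strand, so a containing gene may lie on the other strand. Start sites of containing genes are shown because a run of C and T at the transcription start marks messages whose translation is tied to growth signals, and many small nucleolar RNA host genes are known to carry one. The RefSeq promoter table held 14 of the 16 containing genes of the 12 members and TAF1D, and SNHG15 and CCT6P1 were not among them. Each line below gives the gene and the 15 bases on either side of the annotated start, on the strand of the gene, with capitals for a run of at least 5 letters C or T that opens with C within 5 bases of the start.
EIF4A2, holding SNORA63, chr3:186783562-186783591, plus strand: gttgggcgccgctgtCTTTTCagtcgggcg
RPSA, holding SNORA62 and SNORA6, chr3:39406705-39406734, plus strand: tttcctgccgcctgtCTTTTCCgtgctacc
RPL21, holding SNORA27, chr13:27251543-27251572, plus strand: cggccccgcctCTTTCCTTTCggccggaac
RPL27A, holding SNORA3A and SNORA3B, chr11:8682777-8682806, plus strand: ttggcgaaggCCTTCCTTTTTCgtctgggc
TAF1D, holding 6 kept members, chr11:93741481-93741510, minus strand: acggaaatagccaaCCCTTTTCTTCCgcac
CSKMT, holding SNORA57, chr11:62665297-62665326, plus strand: cgcggtgcgggaggCCTTTCggagggtggt
KHDC4, holding SNORA80E, chr1:155934399-155934428, minus strand: gtgacgagaggtggtagtcggatagttggc
NOP56, holding SNORA51, chr20:2652617-2652646, plus strand: gagcgcgctagccgcattgcgagccgaacc
EIF5, holding SNORA28, chr14:103334222-103334251, plus strand: gcggcggcgttgttcagtcagagcgagaac
EIF4A1, holding SNORA48, chr17:7572810-7572839, plus strand: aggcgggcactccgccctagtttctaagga
SENP3-EIF4A1, holding SNORA48, chr17:7561977-7562006, plus strand: ggaggagggggggaggagtggcggcggcgg
ATP2B4, holding SNORA77, chr1:203626817-203626846, plus strand: gcaagagtctggcccgagttagctagagct
LBHD1, holding SNORA57, chr11:62672253-62672282, minus strand: tccagggtttgggggaaacgtgctcacccg
LINC03006, holding SNORA22, chr7:65770796-65770825, minus strand: cacgcagagccaatcggaactccaggtgct
Such a run was found on the strand of the gene in 31 of 68 containing genes with an entry (45.6%) and in 5749 of 27305 promoters of the table (21.1%). Among the 14 genes shown, 6 had such a run and the others had none in this window.

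Probes of the containing genes were called higher more often than lower. They had 124 kept probes for 75 genes, and in the mean of the lines 17 probes of 14 genes were called higher and 3 probes of 3 genes lower, 13.7% and 2.42% beside 4.22% and 2.47% of all kept probes. The rule did not use these probes, and calls were made by limma with Benjamini-Hochberg adjustment over all kept probes. SNHG15, the noncoding host of SNORA9, rose by 1.66 (SE 0.036, adjusted p = 1.69e-17), with 1.81, 1.73, 1.89 and 1.22 in KM-H2, L-428, L-540 and then SUP-HD1. EIF4A2, a translation initiation factor that holds SNORA63 and SNORA4, rose by 0.60 (SE 0.037, adjusted p = 1.53e-10), with 1.102, 0.61 and 0.79 in KM-H2, L-428 and L-540 and -0.09 in SUP-HD1. KHDC4, which holds SNORA80E, rose by 0.72 (SE 0.0525, adjusted p = 1.71e-09), and CSKMT, which with LBHD1 holds SNORA57, by 0.41 (SE 0.12, adjusted p = 0.0155). The LBHD1 probe, brighter than that of CSKMT, had a mean change of -0.18 and was not called. CSKMT is annotated on the plus strand and LBHD1 on the minus strand, and which is the host of SNORA57 was not tested.

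Containing genes of other members that were called higher were EPB41L4A-AS1 (1.63), SNHG17 (1.46), SNHG7 (1.32 and 0.83 for its 2 called probes), TAF1D (1.06 and 0.81), SNHG12 (1.02), SNHG8 (1.01), SNHG11 (1.002), MATR3 (0.95 and 0.44 for its called probes), KANSL2 (0.81) and RPL32P3 (0.67). The brightest MATR3 probe, at 0.31, was not called. Called lower were DANCR (-0.52), SNHG9 (-0.50) and SNHG4 (-0.41). The spans of MATR3 and SNHG4 both hold SNORA74A, and which gene is its host was not tested. For 26 kept members inside a gene called higher, the mean changes ran from -0.76 to 0.37 with a median of -0.26, 22 were below 0, 4 were called lower and 0 higher. SNORA74A is counted among them through MATR3 and SNORA57 through CSKMT. All 88 kept members had a median of -0.23, with 78 below 0, 14 called lower (15.9%) and 0 higher. Whether members of genes called higher differed from the others was not tested. Of the remaining hosts of the 12 members, RPL21 and RPL27A, which code for ribosomal proteins, had mean changes of 0.002 and -0.005 (adjusted p = 0.989 and 0.962), and the brightest probe of NOP56, a core protein of C/D ribonucleoproteins, had -0.05 (adjusted p = 0.377). EIF5 probes ranged from 0.05 to 0.35, EIF4A1 probes were at -0.01 and -0.21, ATP2B4 probes lay between -0.35 and 0.03, the brightest CCT6P1 probe was at 0.11, and none was called.

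**Figure D3:**
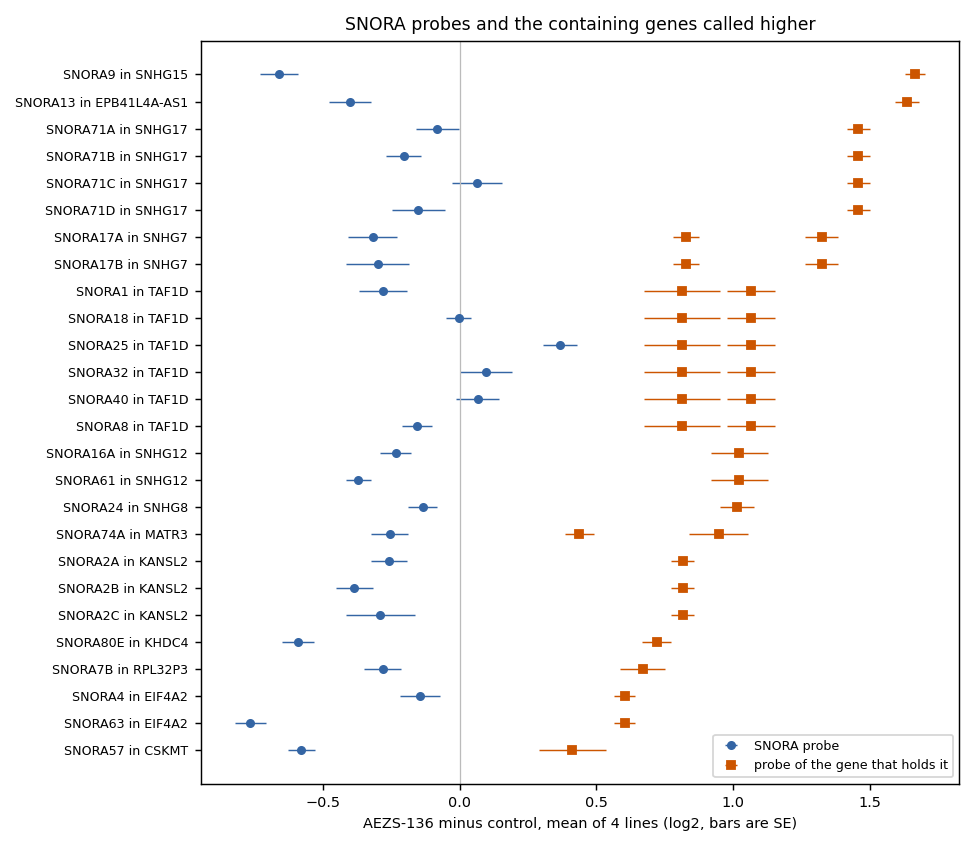
Mean change over the 4 lines (log2, bars are SE) of the 26 kept SNORA probes that lie in a gene called higher, beside the called probes of that gene. A call needed a change beyond 0.4, so the host probes shown lie above 0.4 by selection. The SNORA probes lie between -0.76 and 0.37, with a median of -0.26 beside -0.23 over all 88 kept SNORA probes.

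Members of 1 host did not all move alike. TAF1D, a subunit of a polymerase I initiation factor, holds SNORA1, SNORA8, SNORA18, SNORA25, SNORA32 and SNORA40 among the kept probes. Their mean changes were -0.28, -0.15, 0.00, 0.37, 0.10 and 0.07, with 0 called, where SNORA40 was detected on 4 arrays and SNORA1 on 20, and in L-540 their changes were -0.84, -0.50, -0.41, -0.10, -0.37 and -0.09. In EIF4A2, SNORA4 had a mean change of -0.14 beside -0.76 for SNORA63. RPL27A gave -0.43 for SNORA3A and -0.54 for SNORA3B. Within TBRG4, SNORA5A had -0.43, SNORA5C -0.30 and SNORA5B -0.14. The differences within a host were not tested.

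Before treatment the levels of the family differed between the lines much more than they changed with AEZS-136, and L-540 was highest. The rule did not use these contrasts. Of the 88 kept probes, 77 had their highest control mean in L-540, and 69 were called above each of the 3 other lines (9.42% of all kept probes were so for L-540). Since a probe seen in L-540 alone had to differ, the 40 probes detected on all arrays were counted as well, and 37 of these were above each other line. The share among all probes detected on every array was not counted. Over these 40 the L-540 level exceeded the mean of the other 3 lines by a median of 3.14, or 8.83-fold, and over the 88 by 2.86, or 7.25-fold. The size depended on the processing: the median of KM-H2 minus L-540 over the 88 was -3.55, and -2.39 with the authors' values, and that of L-540 minus SUP-HD1 was 2.89, and 1.92 with the authors' values. The median of the 88 probes was between 9.61 and 9.68 on the L-540 control arrays, 5.54 to 5.62 on those of KM-H2, 6.26 to 6.46 on those of L-428 and 5.98 to 6.09 on those of SUP-HD1, so no other array came near L-540. With AEZS-136 the L-540 arrays were at 8.84 to 9.20. The untreated levels and the changes with AEZS-136 share the control arrays. The authors' own normalized values gave 65 of 88 above each other line and unfiltered values 70 of 102.

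SNORA51 showed the largest excess. Its control mean was 12.14 ± 0.18 (SD, n = 3) in L-540, 6.79 ± 0.079 in L-428, 5.56 ± 0.12 in KM-H2 and 5.29 ± 0.27 in SUP-HD1, and L-540 was 76.6-fold above the mean of the others. SNORA9 was at 12.54 ± 0.087 in L-540 against 7.36 in L-428, 6.12 in SUP-HD1 and 5.87 in KM-H2, 68.2-fold above their mean. In both, L-428 came second and differed from the 2 lines below it, and KM-H2 and SUP-HD1 did not differ by the test (limma, adjusted p = 0.163 for SNORA51 and 0.145 for SNORA9). SNORA63 had the order L-540 (13.56), L-428 (9.19), SUP-HD1 (8.33) and KM-H2 (7.76), with each neighbour called different. SNORA62 had L-540 (14.11), L-428 (9.60), KM-H2 (9.08) and SUP-HD1 (8.12), again with each neighbour called. SNORA38B was not detected in untreated SUP-HD1 and was at least 64.2-fold higher in L-540, and SNORA48, not detected in KM-H2, was at least 28.4-fold higher there than in KM-H2.

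The exceptions were few. SNORA52 and SNORA14B were highest in SUP-HD1 and were called above each other line there (9.51% of all kept probes were so for SUP-HD1), at 7.16 ± 0.070 for SNORA52 against 5.43 ± 0.14 in L-540 (adjusted p = 9.56e-08). SNORA70 was lowest in L-540, at 7.76 ± 0.024 against 8.63 in KM-H2, 8.86 in L-428 and 8.86 in SUP-HD1, with each of these differences from L-540 called. In all, 11 kept probes were not highest in L-540. Between the other lines, L-428 was called above KM-H2 for 46 probes and below for 0 (23.5% and 22.7% of all kept probes), above SUP-HD1 for 36 and below for 11 (21.2% and 21.8%), and SUP-HD1 was above KM-H2 for 35 and below for 5 (25.6% and 23.9%). L-540 was called above KM-H2 for 77 probes (24.7% of all kept probes) and above SUP-HD1 for 74 (22.9%), and 83 of the 88 were called in at least 1 of the 6 pairs of lines (77.6%). For the genes that contain kept members, taking the brightest probe for each member gave 60 distinct probes. Their median difference between L-540 and the mean of the other lines was 0.05. The 24 probes of H/ACA proteins gave medians of 0.07 for KM-H2 minus L-540 (4 higher and 4 lower), -0.31 for L-428 minus L-540 (0 higher and 10 lower) and 0.21 for L-540 minus SUP-HD1 (10 higher and 3 lower). The shares of all kept probes called higher and lower were 23.9% and 24.7%, 22.1% and 22.5%, and 22.9% and 23.8% in the same order.

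**Figure D4:**
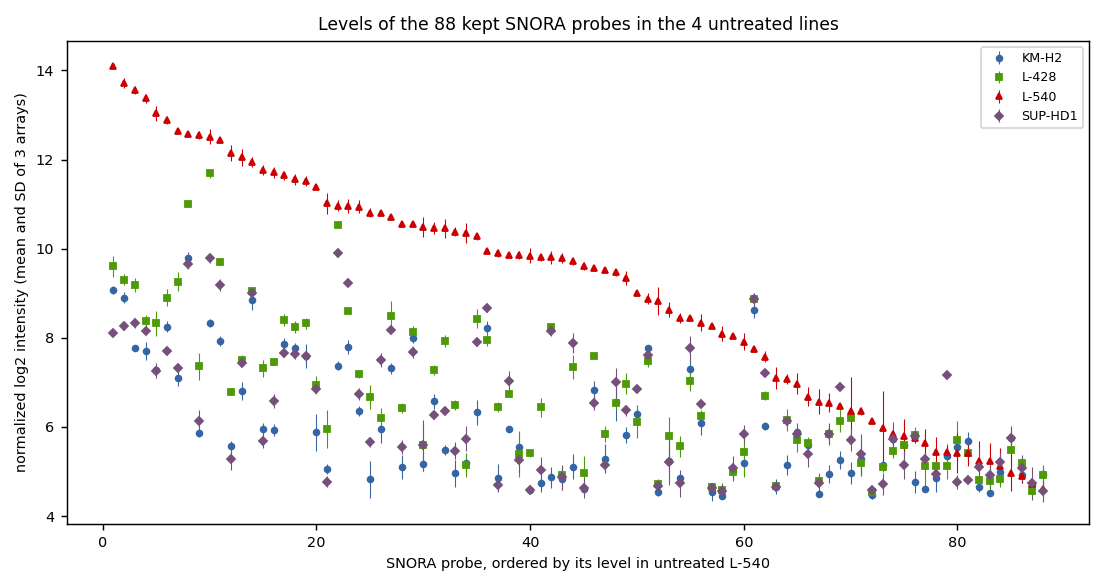
Control level of the 88 kept SNORA probes in the 4 lines (normalized log2 intensity, mean and SD of 3 arrays), ordered by their level in L-540. The L-540 points lie above those of the other lines for 77 probes.

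Differences of the responses between lines are built from the changes on which the family was picked, so their calls are listed only as a description. They were called for 24 of the 88 probes in at least 1 of the 6 pairs of lines (9.87% of all kept probes). KM-H2 against L-540 gave 16, all with the lower change in L-540 (1.65% of all kept probes, and 1.37% the other way), and L-540 against SUP-HD1 gave 12, again all with the lower change in L-540 (1.12%, and 2.54% the other way). L-428 against L-540 gave 5 (0.81% in each direction) and KM-H2 against SUP-HD1 gave 4 (3.37% with the lower change in SUP-HD1 and 1.87% the other way). KM-H2 against L-428 gave 2 (1.11% and 0.867%), and L-428 against SUP-HD1 gave 1 (1.18% and 0.586%). Between the resistant and the sensitive lines 8 probes were called, all with the lower change in the sensitive lines (1.35%). A fall cannot be read from a probe that is not detected, and 5 of the 16 and 6 of the 12 were undetected on all 6 arrays of 1 of the lines compared, while 6 and 4 were detected on all 12 arrays. SNORA65, detected on every array, was among the 6. It read 7.48, 7.53 and 7.73 in L-540 controls against 6.49, 6.70 and 6.76 with AEZS-136, and 5.92, 6.05 and 6.09 against 5.78, 6.0 and 5.98 in KM-H2, where the groups overlapped. The difference of its responses was 0.84. With arrays scaled to a common median 3 probes were called in place of 24, and 0 in place of 8 between the resistant and the sensitive lines.

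Proteins of the H/ACA particle were read from a list that the rule did not use. The list held DKC1, NHP2, NOP10, GAR1, NAF1, SHQ1, RUVBL1, RUVBL2, PIH1D1, RPAP3, NOLC1, TCOF1, COIL and WRAP53, all 14 with kept probes, 24 in number. In the mean of the lines 1 probe was called higher and 0 lower. DKC1, the pseudouridine synthase, had a mean change of 0.02 (SE 0.039, adjusted p = 0.736), NOP10 had -0.21 and -0.23 for its probes, and NHP2 probes lay between -0.10 and 0.02. GAR1 probes were at -0.39, -0.27, -0.26 and -0.16 and NAF1, an assembly factor that GAR1 replaces, was at -0.31, all short of the size threshold. The call was 1 of 3 RUVBL1 probes (0.40, SE 0.10, adjusted p = 0.0048), which was detected on 10 arrays, while the other probes of that gene gave -0.07 and -0.06, and it was lost when any of several single arrays was left out and under 4 other processing settings.

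Among factors that trim or degrade small nucleolar RNA precursors, 13 genes with 18 kept probes were read, and 3 probes were called higher and 0 lower. ZCCHC8, a subunit of the nuclear exosome targeting complex, rose by 0.68 (SE 0.055, adjusted p = 6.83e-09), with 0.71, 0.75, 1.01 and 0.26 in KM-H2, L-428, L-540 and then SUP-HD1. DIS3, a catalytic subunit of the exosome, rose by 0.47 (SE 0.098, adjusted p = 0.00104) and TOE1, a deadenylase that trims small nuclear RNAs, by 0.41 (SE 0.068, adjusted p = 0.00011). DBR1, the enzyme that opens intron lariats, had -0.35 and -0.38, which did not pass the size threshold. Of 8 probes for the C/D proteins FBL, NOP56, NOP58 and SNU13, 0 were called by limma, and 0 had a mean change beyond 0.4.

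Other short RNA families were counted for comparison. SNORD genes, the C/D small nucleolar RNAs that guide ribose methylation, had 95 kept probes of 178, with 8 called lower and 1 higher in the mean of the lines and 16 lower and 3 higher in L-540, and a median of -0.15 in the mean and -0.17 in L-540. In L-428 and SUP-HD1 SNORD was close to SNORA, with 13.7% and 15.8% of probes called lower beside 14.8% and 15.9% of SNORA. The SNORD medians there were -0.15 and -0.12, beside -0.19 and -0.16. The shares lay further apart in KM-H2 (4.21% of SNORD and 13.6% of SNORA) and L-540 (16.8% and 53.4%). SCARNA genes, small RNAs of Cajal bodies that guide modification of spliceosomal RNAs, had 22 kept probes of 24, with 0 called in the mean, 4 lower and 1 higher in L-540, and a median of -0.40 in L-540. Before treatment KM-H2 minus L-540 had a median of -3.55 over SNORA, -2.04 over SCARNA, -0.92 over SNORD and -0.64 over 11 probes of spliceosomal small nuclear RNAs (RNU). L-540 minus SUP-HD1 had medians of 2.89, 1.37, 0.57 and -0.31 in the same order, with 2 RNU probes called higher and 4 lower in L-540. Over probes detected on all arrays the medians of KM-H2 minus L-540 were -3.84 for 40 SNORA, -4.65 for 9 SCARNA and -1.07 for 50 SNORD probes. The differences between families were not tested.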

How the data were processed

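The authors deposited bead array signals per probe (intensity, not normalized, BeadStudio), with 1 minus the detection p-value, and a matrix of log2 values normalized by robust spline in lumi; probe annotation came from the platform table, and the genome build is not given in the sources used here. In 3270 consecutive rows, none of them SNORA, the deposited signal and detection columns were out of register, and these rows were left out. Their shift gives the export order of the arrays, which was cut into 2 export sets of 12. From the deposited intensities, limma 3.58.1 in R 4.3.3 computed neqc values (normexp background from detection p-values, quantile normalization, offset 16). Probes with a detection p-value under 0.05 on at least 3 arrays were kept (24578). A model with 1 coefficient for each of 8 groups over 24 arrays was fitted with lmFit and eBayes, with Benjamini-Hochberg adjustment over all kept probes, and calls needed an adjusted p under 0.05 and a log2 change beyond 0.4, the study's thresholds. The script was tested on simulated data. Per-array values are given for the 12 kept members called in the mean of the 4 lines with the largest mean change. Other kept members are given by range or with their changes, and host genes where they hold one of these members or were called. SNORA16A, SNORA25, SNORA33, SNORA50A and SNORA65 are also given by array, and DBR1 is named, as choices made after their values were seen. The members, lists and tests were chosen with earlier results of these data known. Containing genes were found by span in the RefSeq gene table, which lacks strand. No SNORA sequence was used here, so none is shown. Array number limits the precision. Alternatives were the deposited log2 values, no background correction, median scaling, other detection filters, the methods' t-test, fits to 1 line, the export set and the replicate number as blocks, each export set alone, and each array left out.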

Additional observations from a re-analysis of the deposited data

Results flagged for a closer look

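Differences of the response between KM-H2 and L-428 on the one hand and L-540 and SUP-HD1 on the other were called for 8 SNORA probes. They are combinations of the AEZS-136 changes on which the family was picked, so they are listed as a description, without p-values, and nothing is read from them. The difference, positive where the change was lower in L-540 and SUP-HD1, was 0.479 for SNORA12, 0.413 for SNORA18, 0.648 for SNORA26, 0.556 for SNORA33, 0.559 for SNORA65, 0.627 for SNORA71A and 0.587 for SNORA79. The calculated value for SNORA50A was 0.621, but that probe was detected in L-540 alone and was kept through that line, so no fall could have been measured in the other lines. Its L-540 controls read 6.17, 6.10 and 6.10 and its AEZS-136 arrays 5.00, 5.17 and 5.08. The 8 calls stood beside 1.35% of all kept probes, and 0 went the other way (0.749%). They were mostly lost under other settings, with 0 called under median scaling, 2 with the authors' values and 0 within either export set. SNORA12, SNORA18, SNORA33 and SNORA65 were detected on all 24 arrays.

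SNORA33 lies in the ribosomal protein gene RPS12. Its controls and AEZS-136 arrays read 10.27, 10.20 and 10.37 against 9.68, 9.59 and 9.67 in L-540 and 7.88, 7.99 and 7.82 against 7.39, 7.15 and 7.34 in SUP-HD1, with no overlap. In KM-H2 they read 6.27, 6.07 and 6.64 against 6.29, 6.05 and 6.45 and in L-428 8.28, 8.34 and 8.67 against 8.30, 8.47 and 8.32, where the groups overlapped.

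By pairs of lines, the calls were 2 for KM-H2 and L-428, 16 for KM-H2 and L-540, 4 for KM-H2 and SUP-HD1, 5 for L-428 and L-540, 1 for L-428 and SUP-HD1 and 12 for L-540 and SUP-HD1. SNORA3B, one of the 12 members shown array by array, had a difference of 0.711 between KM-H2 and SUP-HD1, from changes of -0.19 and -0.90. Both probes called for KM-H2 and L-428 were SNORA73B.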

How the results depend on the processing

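No mean change of the 12 members turned its sign under any setting. Several shrank, at the least to -0.38 for SNORA9 (from -0.66), -0.37 for SNORA22 (from -0.63) and -0.32 for SNORA27 (from -0.55), and SNORA28 and SNORA62 stayed called in 5 of the 9 settings other than left-out arrays. Counts are given for KM-H2, L-428, L-540 and then SUP-HD1, then the mean of the lines, the pairs of lines and the classes, and stood at 15, 14, 47 and 16, then 14, 24 and 8. With the authors' log2 values they were 1, 5, 46 and 4, then 3, 44 and 2. With no background correction they were 3, 6, 44 and 5, then 3, 45 and 4. Median scaling gave 3, 7, 15 and 2, then 12, 3 and 0, and moved the share of higher calls over all probes from 57.7, 55.7, 61.0 and 44.9% to 88.5, 46.0, 82.6 and 71.7%. With only the probes detected on all arrays fitted and adjusted, 24 of 40 were called in L-540, where the main fit called 22 of the same 40. That setting gave 5 for the classes and 39 between untreated lines in place of 83. The methods' t-test gave 2, 1, 11 and 4 after adjustment, and 12, 18, 51 and 18 before it. Fits to the 6 arrays of a line gave 9 in L-428 and 10 in SUP-HD1. Within the first export set, with fewer arrays, the counts were 5, 0, 17 and 0, then 20, 0 and 0, and in the second 1, 3, 5 and 0, then 17, 0 and 0. H/ACA protein calls were 0 rather than 1 with the authors' values, with no background correction, with median scaling and among probes detected on all arrays, and processing factor calls were 1 rather than 3 with the first 2 of these. Leaving out single arrays gave 11 to 15, 8 to 15, 31 to 50 and 14 to 17 in the lines, 14 to 19 in the mean, 16 to 27 for pairs, 6 to 9 for classes, 82 to 83 between untreated lines, 18 to 21 host probes, 0 to 2 H/ACA protein probes and 2 to 4 processing probes. The replicate numbers did not pair the arrays, since same-numbered arrays had a mean correlation of 0.002 and 6 of 24 were closest to their own number, and a replicate block gave 14, 14, 47 and 16, then 14, 22 and 8. The causes of these differences were not tested. Probes near background limit the dim members, and 3 arrays per group limit all.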
